A study of Mus musculus with 2 samples.

Results

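Antibody heavy-chain genes, the kappa light-chain gene and 3 genes of antibody-secreting cells were followed in single-cell RNA sequencing of mouse lung. The members, taken by gene symbol, were Ighm, Ighd, Ighg1, Ighg2b, Ighg2c, Igha, Igkc, Jchain, Mzb1 and Xbp1, which are 10 of the 55357 genes in the files, and each symbol was found. Female BALB/c mice carried orthotopic K7M2 osteosarcoma, a mouse bone tumour line. They received 1V209-Cho-Lip, a preparation that the series title describes as a nanomedicine with a TLR7 agonist, or phosphate-buffered saline (PBS). The lungs of 3 mice were pooled into 1 library per group, so single mice cannot be told apart, and dose and time of treatment were not given in the sources used here. With 1 library per group no test across samples was possible, and an effect of treatment and a difference between libraries cannot be told apart.

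An antibody joins heavy chains, whose constant region sets the class, to kappa or lambda light chains. Ighm and Ighd encode the heavy chains of IgM and IgD, which naive B cells carry, while Ighg1, Ighg2b, Ighg2c and Igha encode those of IgG1, IgG2b, IgG2c and IgA, which B cells take up by class switching. Plasma cells, the secreting form, make antibody in bulk: Jchain encodes the chain that joins IgA and IgM into multimers, Mzb1 an endoplasmic reticulum (ER) protein that helps assemble them, and Xbp1 a transcription factor that widens the secretory pathway. In mucosal tissue such as the airway, IgA is the class best known for secretion.

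The libraries held 54843992 unique molecular identifiers (UMIs, each counting 1 captured RNA molecule) in 13740 barcodes with 1V209-Cho-Lip and 58156102 in 14622 with PBS. After filtering, 12265 and 12654 cells remained, with a median of 2506 and 2198 UMIs. The libraries had 268 barcode sequences in common, 210 of them among kept cells of both. Neutrophil-like cells took 36.9% of cells with 1V209-Cho-Lip and 12.5% with PBS. Levels are given as CPM, the UMIs of a gene in the summed cells of a class scaled to a common total. Each ratio sets 1V209-Cho-Lip over PBS, with a 95% interval that covers counting error only. A gene counted as higher or lower when its ratio, with 0.5 UMIs added to each count, passed 1.5-fold with at least 20 UMIs over both libraries; printed ratios have nothing added.

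The heavy-chain genes lie close together on the minus strand of chromosome 12 (GRCm38, the mm10 build of the files). Igha lies at chr12:113254830-113260236, Ighg2c at chr12:113285325-113288932, Ighg2b at chr12:113302965-113307933 and Ighg1 at chr12:113325240-113330523. Ighd lies at chr12:113406604-113416324 and Ighm at chr12:113418558-113422730. Heavy-chain genes outside the members lie among them, Ighe at chr12:113269260-113273248 and Ighg3 at chr12:113356224-113361232. Igkc lies at chr6:70726435-70726966, Jchain at chr5:88519809-88527891 and Xbp1 at chr11:5520659-5525893. The first 60 coding bases of the first constant exon are shown for 5 heavy-chain genes, because the IgG genes are close to each other in sequence. Capitals mark in Ighg2c the bases that differ from Ighg2b, and in Ighg2b and Ighg1 those that differ from Ighg2c.
Ighg2c: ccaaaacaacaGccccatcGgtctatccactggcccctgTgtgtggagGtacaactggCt
Ighg2b: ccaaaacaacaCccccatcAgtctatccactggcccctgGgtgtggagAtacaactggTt
Ighg1: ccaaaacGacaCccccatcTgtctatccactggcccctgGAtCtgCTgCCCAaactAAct
Igha: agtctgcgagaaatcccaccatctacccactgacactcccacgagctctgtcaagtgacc
Ighm: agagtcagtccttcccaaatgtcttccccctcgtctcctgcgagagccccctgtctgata

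These stretches are chr12:113288873-113288932 for Ighg2c, chr12:113307874-113307933 for Ighg2b and chr12:113330464-113330523 for Ighg1. Those of Igha and Ighm are chr12:113260177-113260236 and chr12:113422671-113422730. Ighg2c differed from Ighg2b at 5 of these 60 bases and from Ighg1 at 14. Over the whole exon of 291 bases Ighg2b and Ighg2c were 87.6% identical, with a shared run of 34 bases, whereas Igha and Ighm were 50.6% identical to each other. BALB/c mice carry an Ighg2a gene where the C57BL/6 strain of the genome build carries Ighg2c. The files hold no Ighg2a row, so the split of IgG2 reads between Ighg2c and Ighg2b is uncertain, and no strand or multi-mapping setting was given in the sources used here.

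Over the whole libraries IgG1 RNA was higher and IgM and IgD RNA lower with 1V209-Cho-Lip, while IgA, kappa, Jchain and Mzb1 RNA differed less. Ighg1 stood at 24.1 CPM with 1V209-Cho-Lip and 13.3 CPM with PBS, a ratio of 1.81 (1.64 to 2). Of the 619 PBS UMIs of Ighg1, 1 plasma cell held 606, and without the cell with most UMIs in each library the ratio was 69.6. Ighm stood at 48.3 against 114 CPM (ratio 0.423, 0.402 to 0.444) and Ighd at 17 against 30.6 CPM (ratio 0.555, 0.508 to 0.606). Of the 10 genes 2 were higher, Ighg1 and Ighg2c, and 3 were lower, Ighm, Ighd and Ighg2b. Of all 20415 genes measured, 13.7% were higher and 20.1% lower, so these counts lie near those of genes in general. In such sums, fewer cells of a type and less RNA per cell cannot be told apart.

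The secreted-antibody genes had close totals. Igha stood at 51.7 CPM with 1V209-Cho-Lip and 57 CPM with PBS (ratio 0.908, 0.859 to 0.96), and Jchain at 112 against 132 CPM (ratio 0.849, 0.818 to 0.881). Igkc, shared by all kappa antibodies, stood at 98.1 against 131 CPM (ratio 0.749, 0.721 to 0.779). Mzb1, at chr18:35647267-35649367, stood at 29 against 31.3 CPM (ratio 0.924, 0.857 to 0.996). With called doublets kept the ratios of Igha and Jchain were 1.26 and 1.23, and under median-of-ratios scaling those of Igha and Mzb1 were 1.04 and 1.06, so these directions turned. Xbp1, which cells of many kinds express, stood at 121 against 81 CPM, and its ratio of 1.498 (interval 1.44 to 1.56) lay just under the 1.5-fold mark, whereas the same scaling gave 1.72. The plot of ratios shows the genes in the whole library beside both antibody-making classes.

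**Figure D1:**
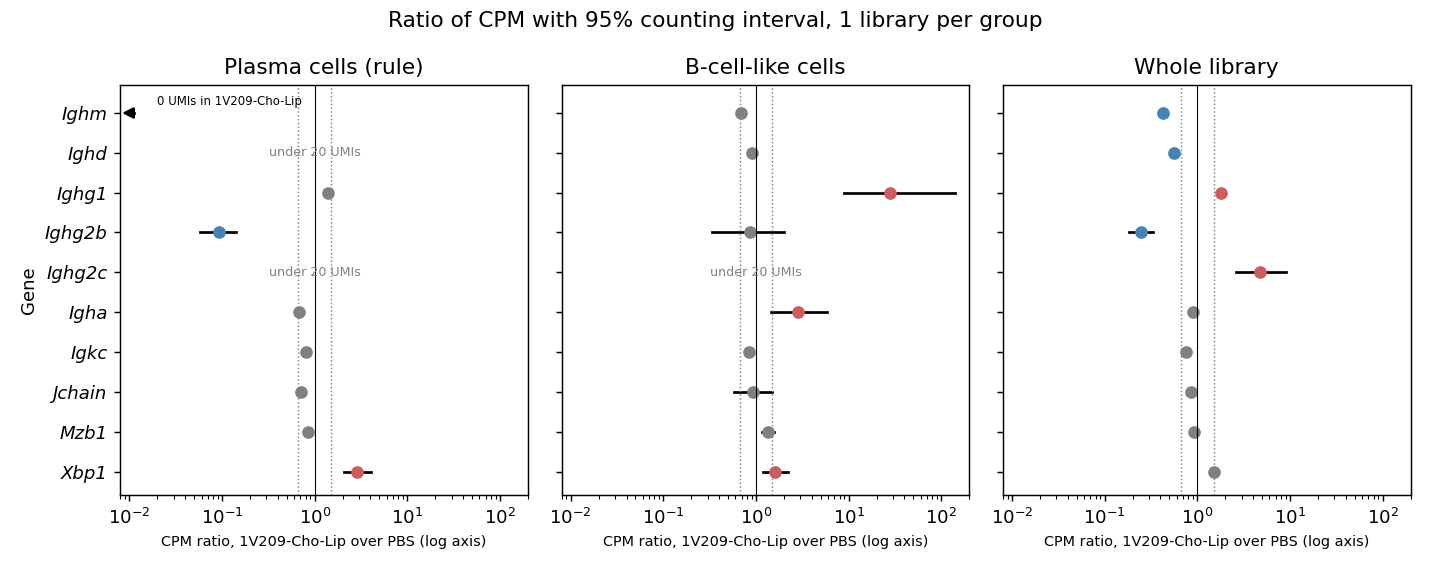
Ratio of CPM, 1V209-Cho-Lip over PBS, on a log axis for the 10 genes in plasma cells, B-cell-like cells and the whole library, with lines for 95% counting intervals and dotted lines at 1.5-fold. Red points are higher and blue points lower by over 1.5-fold; Xbp1 had a ratio of 2.88 in plasma cells and 1.61 in B-cell-like cells, and Ighm had 0 UMIs in the plasma cells of the 1V209-Cho-Lip library.

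A handful of cells held most of the switched antibody RNA. Plasma cells, chosen as cells with both Jchain and Mzb1 and at least 20 UMIs of the pair, held 93% of Ighg1 UMIs with 1V209-Cho-Lip and 97.9% with PBS. They held 87.1% and 94% of Igha. Their share of Jchain, 96.5% and 93.1%, is a description only, since Jchain chose the cells. B-cell-like cells held the unswitched genes, with 61.3% and 64.3% of Ighm and 86.6% and 89.3% of Ighd. Igkc was divided between both, with 51% and 38.8% in plasma cells and 32.9% and 50.1% in B-cell-like cells. Xbp1 was spread widely, with 3.14% and 1.33% of its UMIs in plasma cells.

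Ighg2c and Ighg2b rested on single cells. Ighg2c had 66 UMIs with 1V209-Cho-Lip and 14 with PBS, a ratio of 4.75 (2.64 to 9.16), but 65 of the 66 lay in 1 cell. That cell had 20 UMIs of Ighg2b, 221 of Igkc, 1 of Jchain and 0 of Mzb1 among 1970, so it fell outside the plasma cell rule although it lay in a cluster with plasma cell markers. Without the cell with most UMIs in each library the ratio of Ighg2c was 0.202. Ighg2b had 55 UMIs with 1V209-Cho-Lip and 224 with PBS (ratio 0.248, 0.181 to 0.334), of which 1 PBS cell held 153, and the ratio was 0.497 without the cell with most UMIs in each library.

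**Figure D2:**
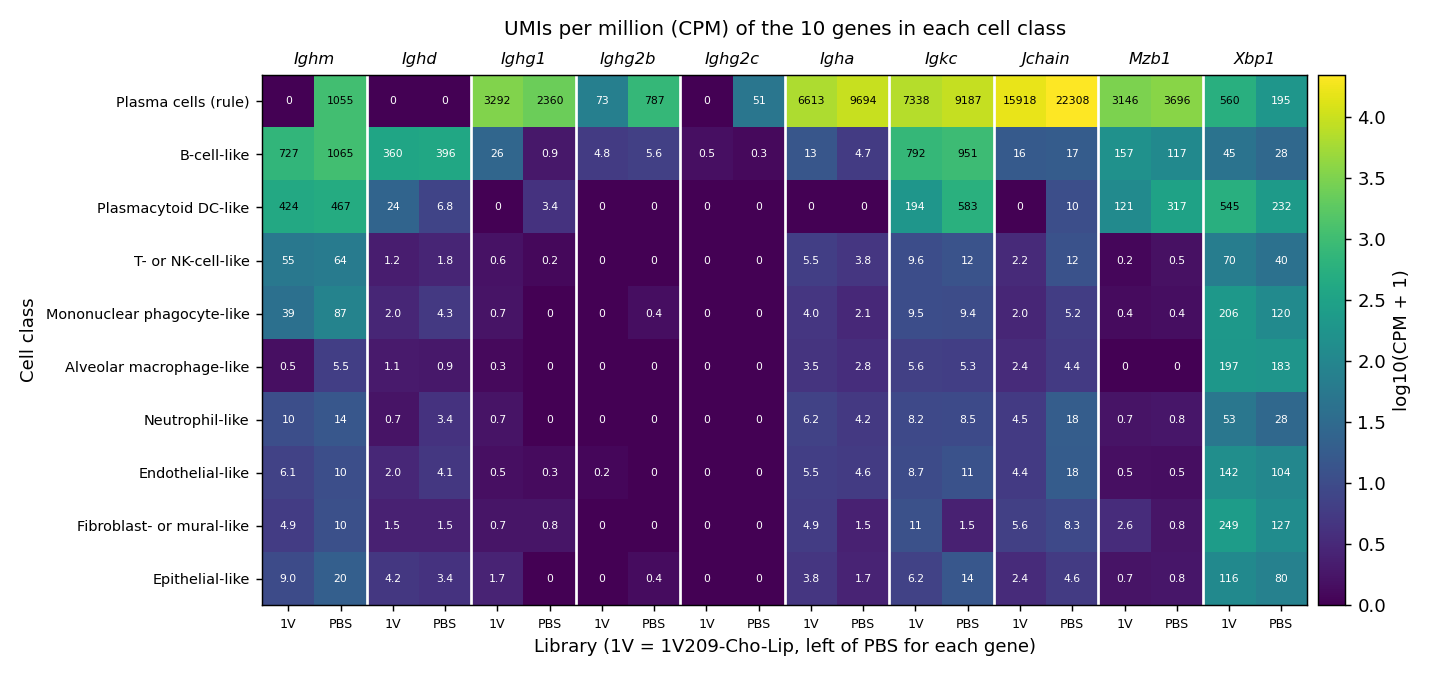
CPM of the 10 genes (columns, with the 1V209-Cho-Lip library left of PBS) in 10 cell classes (rows), printed in each field and coloured by log10(CPM + 1). Igha, Ighg1, Jchain and Mzb1 stand highest in plasma cells, Ighd in B-cell-like cells, and Ighm and Igkc also appear in plasmacytoid dendritic-like cells.

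The plasma cell rule found 16 cells with 1V209-Cho-Lip and 20 with PBS, which were 0.13% and 0.158% of kept cells (ratio 0.825, 0.4 to 1.68). Among cells of named immune classes other than neutrophils, with plasma cells counted in and mixed and unnamed clusters left out, the ratio was 1.64 (0.797 to 3.34). Both intervals hold 1, so the difference in plasma cell share did not pass counting error at these cell numbers. With 1 library per group, a difference between treatments could not be tested. The cells had a median of 21267 UMIs with 1V209-Cho-Lip and 11606 with PBS, far above the median of all cells. Jchain and Mzb1 chose these cells, so their levels there are description: the lowest sums of the pair inside the rule were 27, 110 and 173 with 1V209-Cho-Lip and 78, 96 and 130 with PBS. The highest sums outside it were 18, 17 and 12 with 1V209-Cho-Lip and 10, 9 and 8 with PBS.

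Plasma cell markers that the rule did not use were also high. Of 12 other plasma cell markers, 9 were at least 2-fold above the remaining cells in both libraries, all but Sdc1, Fkbp11 and Ly6c2. Most of the cells, 13 of 16 with 1V209-Cho-Lip and 14 of 20 with PBS, lay in 2 small clusters made without antibody genes. One of these clusters, with 8 and 6 of the cells, had mast cell proteases among its leading genes. In the plasma cells themselves 10 of 10 mast cell or basophil markers were at 0 with 1V209-Cho-Lip and 9 of 10 with PBS. The remaining 3 and 6 cells lay in B-cell-like, mononuclear phagocyte-like, endothelial-like and fibroblast-like clusters. Neutrophil markers summed to 1492 CPM in the plasma cells with 1V209-Cho-Lip and 436 CPM with PBS, against 44221 and 7073 CPM in all other cells. Called doublets, which had been removed, held a further 8 and 5 cells that met the rule. The part of doublets or of RNA from other cells in these values was not tested.

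The 10 genes most raised in plasma cells over B-cell-like cells, by the lower ratio of the 2 libraries, included 3 of the members. Jchain chose the plasma cells, and cells that met the rule had been taken out of the B-cell-like class, so these folds are a description. Jchain was at 982-fold, Igha at 488-fold and Ighg1 at 125-fold. The others were Tnfrsf17, which encodes the survival receptor BCMA, at 357-fold, Derl3, an ER-associated degradation gene, at 57.5-fold, and Cd28 at 43.5-fold. Also among them were Pycard and the cell-division genes Pclaf, Ube2c and Mki67. Mki67 stood at 525 CPM with 1V209-Cho-Lip and 331 CPM with PBS in plasma cells, and at 7.44 and 5.61 CPM in B-cell-like cells.

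IgA was the commonest class of plasma cells in both libraries, and IgG1 cells were counted more often with 1V209-Cho-Lip. Ighg1 was the leading heavy-chain gene in 6 of 16 cells with 1V209-Cho-Lip (37.5%, exact binomial interval 15.2 to 64.6%) and in 1 of 20 with PBS (5%, 0.127 to 24.9%). Igha led in 10 of 16 (62.5%, 35.4 to 84.8%) and 16 of 20 (80%, 56.3 to 94.3%). The intervals of both classes overlap between libraries. In the PBS library 2 further cells were led by Ighg2b and 1 by Ighm, while neither led a cell with 1V209-Cho-Lip, so the IgG genes together led 6 of 16 and 3 of 20 cells. For a class seen in 0 of 16 cells the exact interval reaches 20.6%.

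Nearly every plasma cell used 1 class. The leading gene held over 90% of heavy-chain constant UMIs in 16 of 16 cells with 1V209-Cho-Lip and 19 of 20 with PBS. The exception was a PBS cell with 49 UMIs of Ighg2b and 36 of Igha. Within the 6 Ighg1-led cells of the 1V209-Cho-Lip library, Ighg1 had 149, 151, 155, 164, 200 and 216 UMIs, a narrow range, while the single Ighg1-led cell with PBS had 606. In the cell with 216 UMIs of Ighg1 there were also 17 of Ighe, the IgE heavy-chain gene, of 18 in that library and 0 with PBS. The 10 Igha-led cells of the 1V209-Cho-Lip library ranged more widely, between 14 and 624 UMIs of Igha, and the 16 with PBS lay between 63 and 332.

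**Figure D3:**
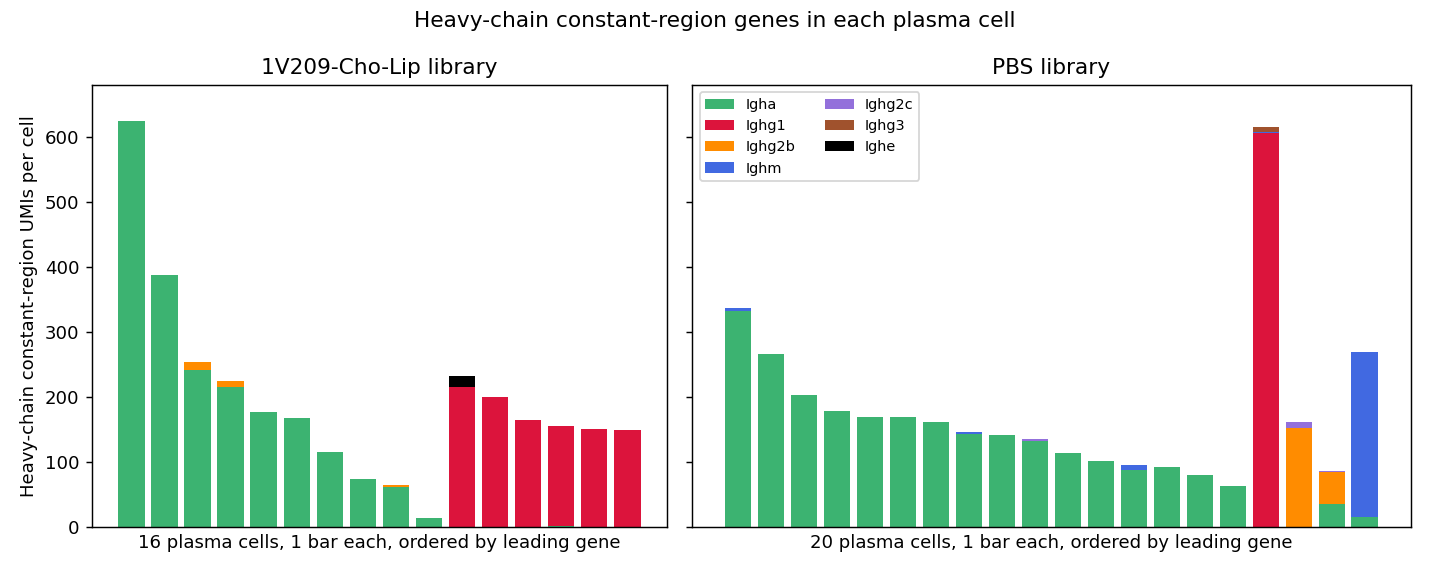
Heavy-chain constant-region UMIs of each plasma cell as stacked bars, 16 cells with 1V209-Cho-Lip at the left and 20 with PBS at the right, ordered by leading gene. Red bars (Ighg1) number 6 with 1V209-Cho-Lip and 1 with PBS, which at 606 UMIs is the tallest of them; green bars (Igha) number 10 and 16.

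Summed over plasma cells, the difference in Ighg1 was smaller than in the cell counts. Ighg1 stood at 3292 CPM with 1V209-Cho-Lip and 2360 CPM with PBS (ratio 1.39, 1.26 to 1.54), since the PBS value came from the 1 cell with 606 UMIs. The mean of each cell's CPM, which weights cells alike, gave a ratio of 2.55. Igha stood at 6613 against 9694 CPM (ratio 0.682, 0.643 to 0.723). Ighg2b had 23 UMIs with 1V209-Cho-Lip and 202 with PBS (ratio 0.093), with ratios of 0.191 without the cell with most UMIs in each library and 0.149 with doublets kept. Ighm had 0 and 271 UMIs, of which 255 lay in the Ighm-led cell. Against a floor of 3 UMIs over the group, Ighm was at least 111-fold lower with 1V209-Cho-Lip, a value that rests on that 1 PBS cell. Ighd had 0 UMIs in the plasma cells of both libraries.

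Of the 8 members measured in plasma cells 1 was higher, Xbp1, and 2 were lower, Ighm and Ighg2b, while 23.2% of 3298 genes were higher and 11.4% lower. Igkc stood at 7338 CPM with 1V209-Cho-Lip and 9187 CPM with PBS (ratio 0.799, 0.754 to 0.846). Jchain stood at 15918 against 22308 CPM (ratio 0.714, 0.687 to 0.741) and Mzb1 at 3146 against 3696 CPM (ratio 0.851, 0.778 to 0.931). Per cell, Jchain had a lowest, median and highest count of 23, 215 and 1009 UMIs with 1V209-Cho-Lip and 71, 208 and 746 with PBS, so the cells overlapped throughout. Antibody RNA took 16.6% of all plasma cell UMIs with 1V209-Cho-Lip and 23.2% with PBS. With doublets kept the ratios of Igha, Igkc and Jchain were 0.887, 0.995 and 0.935.

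Xbp1 was higher in plasma cells with 1V209-Cho-Lip. It had 176 UMIs with 1V209-Cho-Lip and 50 with PBS, or 559.8 against 195 CPM (ratio 2.88, 2.09 to 4.02). Cell by cell its level had a lowest, median and highest value of 0, 376 and 2260 CPM with 1V209-Cho-Lip and 0, 146 and 1036 CPM with PBS. The ranges overlapped, with 2 of 16 and 5 of 20 cells at 0. The highest cell, the Ighg1-led one with Ighe, held 50 of the 176 UMIs, and without the highest cell of each library the ratio was 2.44. Within Igha-led cells alone Xbp1 stood at 360.3 CPM with 1V209-Cho-Lip and 172 CPM with PBS (ratio 2.1, 1.37 to 3.27). In the 2 clusters with plasma cell markers the ratio was 4.03, whereas the plasma cells of other clusters had 188 CPM in 3 cells with 1V209-Cho-Lip (8 UMIs) and 311 CPM in 6 cells with PBS (21 UMIs), so the direction differed there.

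Most antibody UMIs in plasma cells were assigned to variable segments, the V genes that form the antigen-binding end. Ighv, Igkv and Iglv segments, 346 genes in the files, held 88.7% of antibody UMIs in plasma cells with 1V209-Cho-Lip and 88.9% with PBS. There were 3.8 and 3.77 Ighv UMIs per heavy-chain constant UMI and 14.3 and 16 Igkv UMIs per Igkc UMI. Which end of the transcripts was read was not given, so these ratios do not compare amounts of variable and constant-region RNA. Kappa segments led the light chain in 15 of 16 cells with 1V209-Cho-Lip and 18 of 20 with PBS, and the lambda segment Iglv1 led in the others. The leading heavy and light segments formed 15 distinct pairs in 16 cells and 18 in 20, and 0 pairs occurred in both libraries.

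A few pairs of segments occurred in more than 1 cell. With 1V209-Cho-Lip, 2 Ighg1-led cells shared Ighv10-1 with Igkv2-137, and they were also alike in Ighg1 (200 and 149 UMIs) and Xbp1 (14 and 12 UMIs). With PBS, 2 Igha-led cells shared Ighv7-1 with Igkv7-33. The other PBS pair shared Ighv8-12 with Igkv10-96, had only 2897 and 3768 UMIs and lay in an endothelial-like cluster. Segments were assigned by gene counts, without the junction sequence, so a shared pair does not show descent from 1 cell.

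B-cell-like cells, named from clusters in which 12 of 12 B-cell markers stood above other cells, numbered 672 with 1V209-Cho-Lip and 1450 with PBS. They made up 5.48% (exact interval 5.08 to 5.9%) and 11.5% (10.9 to 12%) of cells, a ratio of 0.478 (0.436 to 0.524). Among cells of named immune classes other than neutrophils, again without mixed and unnamed clusters, the ratio was 0.953 (0.868 to 1.04). Their median depth was 2362 and 1962 UMIs. IgM RNA was somewhat lower with 1V209-Cho-Lip, and a few cells carried several UMIs of Ighg1.

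Ighm, the main heavy-chain gene of these cells, stood at 727 CPM with 1V209-Cho-Lip and 1065 CPM with PBS (ratio 0.682, 0.64 to 0.726). Ighd, made from the same primary transcript by alternative splicing, stood at 360.4 against 396 CPM (ratio 0.91, 0.828 to 1). There were thus 2.02 Ighm UMIs per Ighd UMI with 1V209-Cho-Lip and 2.69 with PBS. Igkc stood at 792 against 951 CPM (ratio 0.833, 0.783 to 0.887). The lambda genes Iglc2 and Iglc3 were lower, at 484 against 853 CPM (ratio 0.567, 0.525 to 0.611) and 291 against 492 CPM (ratio 0.592, 0.536 to 0.653), and Iglc1 had a ratio of 0.847. In cells picked by Cd79a and Ms4a1 UMIs instead of by cluster the ratio of Ighm was 0.844.

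Of the 9 members measured in B-cell-like cells 3 were higher, Ighg1, Igha and Xbp1, and 0 were lower, while 12.8% of 10322 genes were higher and 6.22% lower. Ighg1 had 49 UMIs with 1V209-Cho-Lip and 3 with PBS (ratio 27.9, 8.99 to 139.7). These came from few cells: 4 of 672 cells held 2 or more, with 26 UMIs in the highest, while 0 of 1450 PBS cells held 2 or more. Igha had 25 UMIs with 1V209-Cho-Lip and 15 with PBS (ratio 2.84, 1.44 to 5.8), at 13.3 and 4.68 CPM, where cells without antibody genes had 5.11 and 3.32 CPM. The Igha call depended on which cells were taken: the ratio was 1.44 in cells picked by Cd79a and Ms4a1, 1.49 at a coarser clustering and 0.445 with the plasma rule cells of the B-cell-like clusters kept in. For Ighg1 the mean of each cell's CPM gave a ratio of 9.51. Ighg3, the IgG3 gene, had 23 and 14 UMIs (ratio 2.8, 1.38 to 5.89).

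Mzb1 stood at 157 CPM with 1V209-Cho-Lip and 117 CPM with PBS in B-cell-like cells (ratio 1.34, 1.15 to 1.57), with a UMI in 21.3% and 17.9% of cells. Xbp1 stood at 45.2 against 28.1 CPM (ratio 1.61, 1.18 to 2.19). Jchain had 30 and 55 UMIs, or 15.9 and 17.1 CPM, and in no B-cell-like cell more than 9. Class could be scored in cells with at least 5 heavy-chain UMIs, 160 with 1V209-Cho-Lip and 370 with PBS. Ighm led in 63.8% (55.8 to 71.2%) and 78.6% (74.1 to 82.7%) of them and Ighd in 26.2% (19.6 to 33.8%) and 15.4% (11.9 to 19.5%). Ighg1 led in 3 cells with 1V209-Cho-Lip and in 0 with PBS.

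Antibody RNA also appeared in cells not known to make it. In 7 classes (T- or NK-cell-like, mononuclear phagocyte-like, alveolar macrophage-like, neutrophil-like, endothelial-like, fibroblast- or mural-like and epithelial-like) Igha lay between 3.49 and 6.22 CPM with 1V209-Cho-Lip and between 1.51 and 4.62 CPM with PBS. Whether this RNA was inside these cells or free was not tested. Igha was higher with 1V209-Cho-Lip by ratio in 7 of 7 classes (1.18 to 3.23), but the counting interval held 1 in each of them. The highest ratio, in fibroblast- or mural-like cells, rested on 13 and 2 UMIs. Of the 5 classes that had 20 UMIs, 1 was past 1.5-fold, the mononuclear phagocyte-like class (ratio 1.84, 0.836 to 4.35). The share of all genes higher was 12.6% in T- or NK-cell-like, 10.8% in mononuclear phagocyte-like, 9.77% in alveolar macrophage-like and 10.5% in neutrophil-like cells. It was 12.8% in endothelial-like, 13% in fibroblast- or mural-like and 15.8% in epithelial-like cells. Over the 7 classes together Igha stood at 5.11 CPM with 1V209-Cho-Lip and 3.32 CPM with PBS (ratio 1.54, 1.21 to 1.97).

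Jchain was lower in most of these classes. Its ratio was below 1 in 7 of 7 classes, and it was past 1.5-fold lower with 1V209-Cho-Lip in 5 of the 6 classes that had 20 UMIs, with 0.679 in fibroblast- or mural-like cells. The share of all genes lower was 5.93% in T- or NK-cell-like, 9.04% in mononuclear phagocyte-like, 6.27% in alveolar macrophage-like and 23.7% in neutrophil-like cells. It was 8.83% in endothelial-like, 13.4% in fibroblast- or mural-like and 8.63% in epithelial-like cells. In endothelial-like cells it stood at 4.44 CPM with 1V209-Cho-Lip and 17.5 CPM with PBS, in neutrophil-like cells at 4.47 against 17.8 CPM and in T- or NK-cell-like cells at 2.25 against 11.5 CPM. Over the 7 classes the level was 3.51 against 10.4 CPM (ratio 0.339, 0.275 to 0.417). A Jchain UMI was found in 1.13% of these cells with 1V209-Cho-Lip and 2.9% with PBS, and in 0.385% and 1.24% after each cell was thinned to 1000 UMIs.

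The mix of this RNA differed between libraries. There were 0.688 Jchain UMIs per Igha UMI over the 7 classes with 1V209-Cho-Lip and 3.12 with PBS, while plasma cells had 2.41 and 2.3. Lambda variable segments had 24 UMIs with 1V209-Cho-Lip and 1276 with PBS in the 7 classes, or 0.0187 and 1.31 per Igkv UMI. Plasma cells had 0.0396 and 0.041 lambda UMIs per Igkv UMI, and B-cell-like cells 0.0699 and 0.0903.

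Ighm differed more between these classes. In mononuclear phagocyte-like cells it stood at 39.3 CPM with 1V209-Cho-Lip and 87.2 CPM with PBS (ratio 0.451, 0.381 to 0.533), and in T- or NK-cell-like cells at 54.9 against 64.3 CPM (ratio 0.854, 0.737 to 0.988). Endothelial-like cells had 6.14 and 10.2 CPM and alveolar macrophage-like cells 0.537 and 5.53 CPM. A UMI of Ighm was found in 18.1% and 27% of mononuclear phagocyte-like cells and in 13.7% and 13.6% of T- or NK-cell-like cells. The share was 0.488% and 3.6% in alveolar macrophage-like cells, although those are deeper, with a median of 8257 and 6229 UMIs against 3148 and 2532 in T- or NK-cell-like cells.

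This Ighm RNA came with little of its usual company. Per Igkc UMI there were 5.7 and 5.4 Ighm UMIs in T- or NK-cell-like cells and 4.13 and 9.23 in mononuclear phagocyte-like cells, where B-cell-like cells had 0.917 and 1.12. Per Ighd UMI there were 44.7 and 34.9 in T- or NK-cell-like cells, where B-cell-like cells had 2.02 and 2.69. Ighv segments came to 0.125 and 0.318 UMIs per heavy-chain constant UMI in T- or NK-cell-like cells and 0.191 and 0.201 in mononuclear phagocyte-like cells, against 1.51 and 1.31 in B-cell-like cells. Single cells of the T- or NK-cell-like class reached 11 Ighm UMIs with 1V209-Cho-Lip and 12 with PBS.

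**Figure D4:**
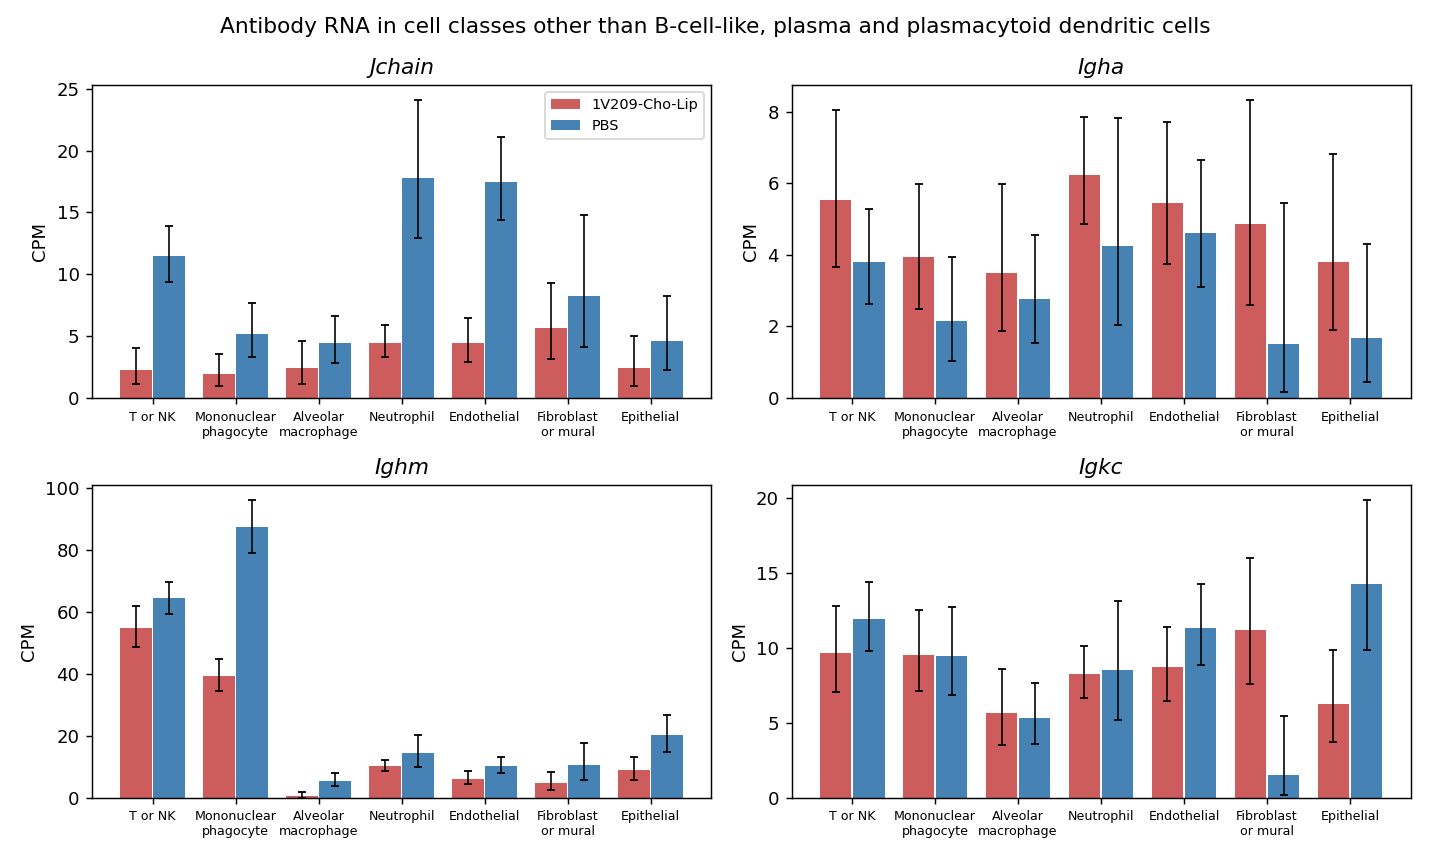
CPM of Jchain, Igha, Ighm and Igkc in 7 cell classes not known to make antibody, with 1V209-Cho-Lip bars left of PBS bars and 95% counting intervals as lines; each panel has its own axis. Jchain stands at 4.44 against 17.5 CPM in endothelial-like cells while Igha lies between 1.51 and 6.22 CPM in the 7 classes, and Ighm stands out in T- or NK-cell-like and mononuclear phagocyte-like cells.

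Plasmacytoid dendritic-like cells, which make type I interferon and share some genes with the B lineage, carried constant-region RNA almost without heavy-chain variable segments. They numbered 17 with 1V209-Cho-Lip and 57 with PBS. Ighm stood at 424 CPM with 1V209-Cho-Lip and 467 CPM with PBS (ratio 0.908, 0.607 to 1.32), with a UMI in 70.6% and 84.2% of cells. Igkc stood at 194 against 583 CPM (ratio 0.332, 0.186 to 0.556) and the lambda gene Iglc3 at 303 against 764 CPM (ratio 0.397, 0.251 to 0.601). Mzb1 stood at 121 against 317 CPM (ratio 0.382, 0.177 to 0.734). Of 3258 genes measured in this class 17.3% were higher and 15.9% lower.

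The variable segments set these cells apart from B-cell-like cells. They had 1 and 3 Ighv UMIs beside 37 and 140 heavy-chain constant UMIs. Kappa segments were less scarce, with 11 and 59 Igkv UMIs beside 16 and 171 of Igkc. This came to 0.688 and 0.345 per Igkc UMI, where B-cell-like cells had 7.3 and 7.29. All variable segments together held 14.4% of antibody UMIs in plasmacytoid dendritic-like cells with 1V209-Cho-Lip and 11.9% with PBS, against 73.6% and 70.8% in B-cell-like cells. Igha had 0 UMIs in both libraries and Jchain 0 and 3. B-cell markers summed to 727 and 317 CPM in them and to 10306 and 12259 CPM in B-cell-like cells. Heart muscle markers summed to 618 CPM in the plasmacytoid dendritic-like cells with 1V209-Cho-Lip and 116 CPM with PBS, and their part in these values was not tested.

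Xbp1 was higher with 1V209-Cho-Lip in most lung cell classes. Its ratio was above 1 in 10 of 10 classes (1.07 to 2.88) and past 1.5-fold in 7, while between 9.77% and 23.2% of all genes were higher in these classes. Fibroblast- or mural-like cells had 249 CPM with 1V209-Cho-Lip and 127 CPM with PBS (ratio 1.96, 1.65 to 2.33), neutrophil-like cells 52.9 against 28.5 CPM (ratio 1.86, 1.44 to 2.43) and T- or NK-cell-like cells 69.9 against 40.5 CPM (ratio 1.73, 1.49 to 2). Mononuclear phagocyte-like cells had 206 against 120.1 CPM (ratio 1.72, 1.55 to 1.9).

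Plasmacytoid dendritic-like cells had 545 against 232 CPM of Xbp1 (ratio 2.35, 1.58 to 3.48). Below 1.5-fold were epithelial-like cells, with 116 against 80.1 CPM (ratio 1.45, 1.21 to 1.74), endothelial-like cells, with 142 against 104 CPM (ratio 1.36, 1.22 to 1.51), and alveolar macrophage-like cells, with 197 against 183 CPM (ratio 1.07, 0.975 to 1.18). In the PBS library plasmacytoid dendritic-like cells had the highest level and plasma cells came next, and with 1V209-Cho-Lip the order of these classes turned, but their counting intervals overlap in each library. B-cell-like and neutrophil-like cells were lowest in both. The deposited counts are per gene, so the spliced, active form of Xbp1 RNA was not measured.

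**Figure D5:**
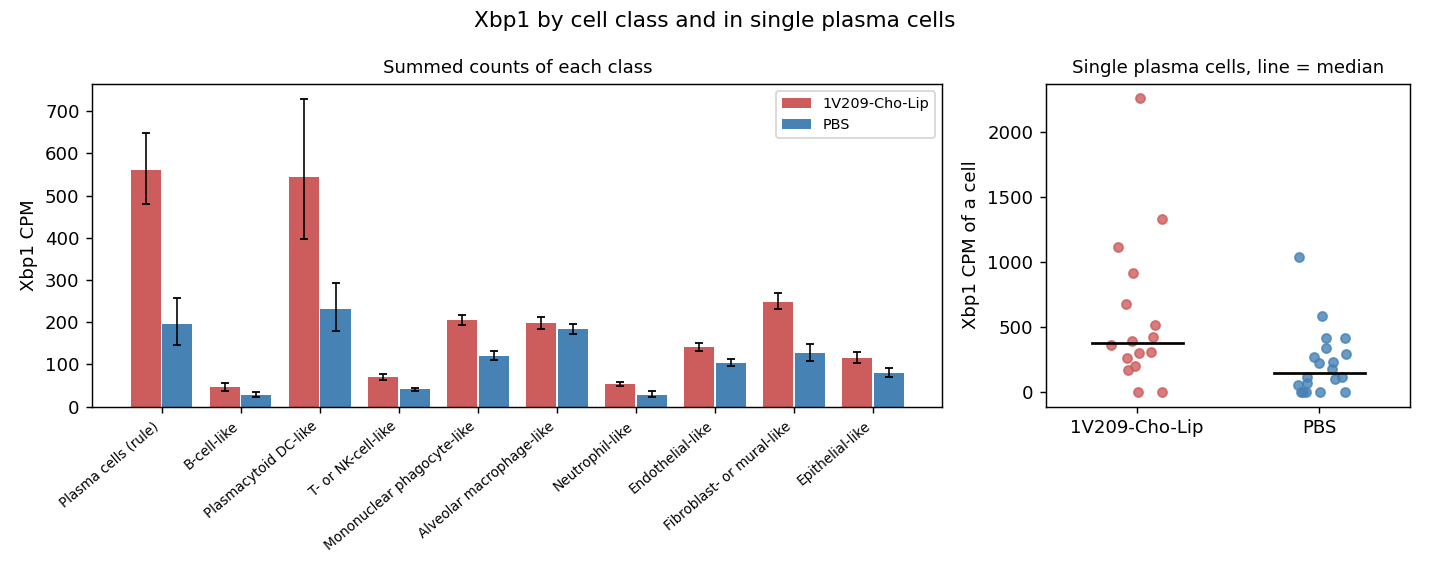
Left, Xbp1 CPM of the summed counts of 10 cell classes with 95% counting intervals; right, Xbp1 CPM of each plasma cell, with the median as a line; 1V209-Cho-Lip stands left of PBS throughout. The plasma cell medians are 376 and 146 CPM, and the single cells of both libraries overlap.

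Genes of protein folding and secretion in the ER, the programme that Xbp1 is known to drive, were next counted in plasma cells. Of 37 measured, 6 were higher and 1 was lower with 1V209-Cho-Lip, where 23.2% of all genes were higher and 11.4% lower, with a median log2 ratio of 0.05, beside 0.13 over all genes. Higher were Edem1, which marks misfolded proteins for degradation, with 114 and 26 UMIs (ratio 3.58, 2.32 to 5.71), the disulfide isomerase-family genes Txndc11 (ratio 2.83) and Txndc5 (ratio 2.42), and Dnajb11 (1.83), Ern1 (1.8) and Calr (1.65). Ern1 encodes IRE1, the sensor that splices Xbp1 RNA, and its interval of 0.817 to 4.25 holds 1. Lower was Herpud1, with 59 and 95 UMIs (ratio 0.507, 0.36 to 0.709), and Derl3, with 62 and 76 UMIs (ratio 0.666, 0.469 to 0.944), lay at the mark and was not counted. Hsp90b1, the ER chaperone GRP94, had the most UMIs at 1878 and 1859 (ratio 0.825, 0.773 to 0.88).

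In plasma cells 23.2% of all genes were higher with 1V209-Cho-Lip and 11.4% lower. Of 16 measured genes of plasma cell identity 4 were higher and 1 was lower there (median log2 ratio 0.05). Higher beside Edem1 and Txndc5 were Ccr10, a homing receptor of IgA plasma cells, with a ratio of 1.97 (1.09 to 3.7), and the chemokine receptor gene Cxcr4, with 1.73 (0.947 to 3.28). Fkbp11, an ER prolyl isomerase, was lower with 11 and 36 UMIs (ratio 0.25, 0.115 to 0.501). Tnfrsf17, the BCMA gene, had a ratio of 1.14 (0.815 to 1.59), Eaf2 1.04 and Ly6c2 1. Among class-switching and germinal centre genes 4 were measured, 1 higher and 2 lower, with Bach2, a repressor of the plasma cell fate, at 9 and 28 UMIs (ratio 0.263, 0.109 to 0.572). Fas, a death receptor gene, had 13 and 16 UMIs (ratio 0.664, 0.294 to 1.47), at the mark, and was not counted. The lambda genes Iglc1, Iglc2 and Iglc3, the 3 other constant-region genes measured, were lower, with ratios of 0.496, 0.567 and 0.527.

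Of 12 measured genes of the B-cell receptor list 4 were higher and 2 lower in plasma cells. Over all genes of these cells 23.2% were higher and 11.4% lower. Blk, a kinase gene, had 9 UMIs with 1V209-Cho-Lip and 17 with PBS (ratio 0.432, 0.17 to 1.03). Cd79a, with the most UMIs at 357 and 292, had a ratio of 0.999 (0.853 to 1.17). Of 3 BAFF and APRIL genes 1 was higher, Tnfrsf13c, with 16 and 8 UMIs (ratio 1.63, 0.66 to 4.41). Of 2 antibody receptor genes Fcer1g was higher, with a ratio of 2.04 (1.28 to 3.35), and Fcgr2b lower, with 0.577 (0.251 to 1.28). Fcer1g is also a myeloid gene, and mononuclear phagocyte markers summed to 1495 CPM in plasma cells with 1V209-Cho-Lip and 861 CPM with PBS; their part in these values was not tested.

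In B-cell-like cells 0 of 18 genes of the B-cell receptor complex and its signalling passed 1.5-fold in either direction (median log2 ratio -0.22, beside 0.03 over all genes), where 12.8% of all genes were higher and 6.22% lower. Cd79a, a signalling chain of the receptor, had a ratio of 0.846 (0.821 to 0.872), Cd79b 0.733 (0.689 to 0.778) and the complement receptor gene Cr2 0.679 (0.569 to 0.808). The kinases Lyn and Syk had ratios of 1.05 and 1.09. Of 40 ER genes 3 were higher, Edem1 (ratio 2.07, 1.52 to 2.83), Dnajc3 (1.67) and Txndc11 (1.5), and 0 were lower. Of 15 plasma cell identity genes 1 was higher, Edem1, and 3 were lower, among them Cd38, at 131 and 360 UMIs (ratio 0.621, 0.504 to 0.76).

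Among receptors in B-cell-like cells, 0 of 2 genes of the BAFF and APRIL list were higher and 1 was lower. Of 9 antibody receptor genes 3 were higher and 3 lower. Over all genes of this class 12.8% were higher and 6.22% lower. Tnfrsf13b, which encodes the BAFF and APRIL receptor TACI, had 175 and 503 UMIs (ratio 0.593, 0.497 to 0.706), while Tnfrsf13c, the BAFF receptor gene, had a ratio of 0.874 (0.772 to 0.988). Fcer2a, the low-affinity IgE receptor gene, had 453 and 1231 UMIs (ratio 0.628, 0.562 to 0.7), and the inhibitory IgG receptor gene Fcgr2b had a ratio of 1.17 (0.987 to 1.39). Of 14 class-switching and germinal centre genes 2 were higher and 1 was lower, with Batf, needed for switching, at 88 and 93 UMIs (ratio 1.61, 1.19 to 2.18) and the germinal centre gene Rgs13 at 4 and 29 UMIs (ratio 0.235, 0.0601 to 0.67). Neutrophil markers summed to 2354 CPM in B-cell-like cells with 1V209-Cho-Lip and 377 CPM with PBS, and the part of such foreign RNA in the ratios was not tested.

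Over the whole libraries the B-cell receptor list had 1 of 18 genes higher and 9 lower with 1V209-Cho-Lip (median log2 ratio -0.68, beside -0.20 over all genes), where 13.7% of all genes were higher and 20.1% lower. Of 40 ER genes 2 were higher and 12 lower (median -0.39), and of 18 plasma cell identity genes 2 were higher and 6 lower (median -0.25). Of 11 antibody receptor and transport genes 5 were higher and 2 lower (median 0.42). Of 17 class-switching genes 2 were higher and 6 lower, of 5 BAFF and APRIL genes 1 was higher and 2 lower, and of 4 other constant-region genes 0 were higher and 3 lower.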

How the data were processed

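Per the series description, single-cell libraries were made on the 10x Genomics platform from lungs of 3 mice pooled per group. The authors deposited raw UMI counts per gene and barcode, made with Cell Ranger 9.0.1 per the file headers, on mm10 per the submitters' processing notes. The labels also name a kit for total RNA, but the deposited matrices hold 1 column per cell barcode and were treated as single-cell counts. Whether reads were taken at the 5′ or 3′ end, the annotation release and the read filters were not given in the sources used here. The members and all gene lists were chosen with earlier results of these data known.

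Kept barcodes had at least 500 UMIs, 200 genes and at most 20% mitochondrial UMIs, which removed 11 and 12 barcodes for few genes and mitochondrial RNA with 1V209-Cho-Lip and 56 and 9 with PBS. Doublet calls came from Scanpy's Scrublet function, expecting 0.8% doublets for every 1000 barcodes, and took out 1455 (10.6%) and 1906 (13%). The cells of the 2 libraries were then jointly clustered with 2951 variable genes, none of them antibody genes (30 components, 15 neighbours, Leiden resolution 2), and mixed, unnamed and plasmacytoid dendritic clusters were divided at resolution 0.5, giving 89. A cluster was named from marker lists with at least 3 markers, and a fraction of at least 0.5 of those measured, above the other cells. The leading genes of the cluster were also checked against the lists. Of the clusters, 13 were mixed and 29 unnamed. A heart muscle list was added after clusters had been seen.

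Ratios of CPM carry exact conditional binomial intervals and shares exact Clopper-Pearson intervals, both at 95% and for counting error only. Where a count was 0 the limit rests on a floor of 3 counts, and calls and list medians add 0.5 counts. A plasma cell's class was its leading heavy-chain gene with over 50% of at least 5 UMIs. Genes named are the members, other constant-region genes, the 4 most abundant genes of each list with its extreme ratios, and the 10 genes highest in plasma over B-cell-like cells; other list members beside them were named after their values were seen. A result that this rule would name is not reported here. Exons and coordinates are from GENCODE vM21 (GRCm38), whose gene identifiers matched those of the files for the members. Alternatives covered scaling, doublets, cell filters, clustering, plasma cell thresholds, class thresholds, thinning and list minimums, and the interval code was tested on simulated data. Tools were Scanpy 1.11.5, scipy 1.17.1, Biopython 1.88, igraph 0.11.9, pandas 2.3.3, scikit-learn 1.9.0, matplotlib 3.10.9 and numpy 2.4.6 in Python 3.11.15, and edgeR 4.0.16 in R 4.3.3 for TMM factors.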

Additional observations from a re-analysis of the deposited data

Results flagged for a closer look

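Igkc RNA moved in opposite directions between libraries in a few cell classes that share the same contrast. In fibroblast- or mural-like cells it had 30 UMIs with 1V209-Cho-Lip and 2 with PBS, or 11.2 against 1.51 CPM (ratio 7.46, 1.89 to 64.5), and 1 cell of the 1V209-Cho-Lip library held 9 of the 30. In epithelial-like cells it stood at 6.23 against 14.3 CPM (ratio 0.437, 0.232 to 0.796), and in plasmacytoid dendritic-like cells at 194 against 583 CPM (ratio 0.332, 0.186 to 0.556). The epithelial-like UMIs lay in 12 and 13 cells. In T- or NK-cell-like, mononuclear phagocyte-like, alveolar macrophage-like, neutrophil-like and endothelial-like cells the Igkc ratio lay between 0.769 and 1.05, and each interval held 1. Over the 7 classes not known to make antibody it was 0.867 (0.738 to 1.02). Every class has 1 library per group, so the difference between classes was not tested.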

How the results depend on the processing

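No paired analysis was possible because each group is 1 library. Of 272 single-gene values under alternatives, 171 stayed within their counting interval, 96 left it and 5 with a ratio past 1.5-fold changed direction; 12 with a ratio within 1.5-fold also lay on the other side of 1. The 5 were Ighg2c in the whole library without the cell with most UMIs of the gene in each library (0.202), Ighg2b there without plasma cells (1.47), Ighg2c in B-cell-like cells, where each library had 1 UMI, with doublets kept (0.847) and with plasma rule cells kept in (0.851), and Igha in B-cell-like cells with plasma rule cells kept in (0.445). Median-of-ratios and TMM scaling moved the median of all genes by 0.20 and 0.18 (log2) in the whole library and by -0.14 and -0.15 in plasma cells. Of the members, 4 were then lower in plasma cells under either scaling, and 4 with 10 Jchain and Mzb1 UMIs or with CPM without antibody genes. With doublets kept 2 were higher and 1 lower in plasma cells, without the cell with most UMIs 2 were higher there and 1 in the whole library, and by the mean of each cell's CPM 2 were higher and 4 lower. The same mean put 7 lower in the whole library and 3 lower in B-cell-like cells, and with plasma rule cells kept in 1 was higher and 3 lower in the B-cell-like cells. In only the 2 clusters with plasma cell markers, chosen after seeing the data, 3 were higher and 1 lower, and Ighg1 led 0% of PBS plasma cells there. The B-cell-like share had a ratio of 0.953 over cells of named immune classes other than neutrophils. Over 80% of heavy-chain UMIs, Ighm or Ighd led 37.5% and 47.3% of B-cell-like cells and Ighd 4.38% and 1.35% (1V209-Cho-Lip, then PBS); with at least 10 heavy-chain UMIs Ighd led 8.82% and 3.7%. With at least 50 UMIs, 0 plasma cell identity genes were lower in plasma cells, and 2 B-cell receptor genes were higher and 0 lower. The share of all genes past 1.5-fold was not counted under the alternatives named here. These counts of members and list genes therefore cannot be set against genes in general. The causes were not tested. With 16 and 20 plasma cells, cell numbers limit the class shares.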
